A study of Mus musculus with 5 samples.

Results

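The immediate early and dissociation stress genes described here are 45 genes that are induced within minutes of a stimulus or by heat and handling, and that are known to come on when tissue is taken apart into single cells. They were chosen by symbol, with no measured value in the rule, but with earlier results of these data known. All 45 were found among the 16992 symbols common to the 5 deposited tables. The tables hold RNA sequencing values of pancreatic cells from C57BL/6 mice aged 2 to 4 months, taken straight after the sort and untreated as far as the labels say. They cover 2 libraries of CD133(positive)CD71(negative) cells and 3 libraries of CD133(high)CD71(low) cells, a population that the series title ties to colony-forming progenitors. Prom1 encodes CD133, a surface glycoprotein, and Tfrc encodes CD71, which takes up iron-loaded transferrin. A second label of the CD133(high)CD71(low) libraries calls them positive for both markers, and the title is followed here. All 5 libraries come from dissociated and sorted cells, so no library of intact tissue stands beside them. The labels do not say whether libraries of a group came from separate mice or sorts, so p-values here reflect only how far these libraries scatter, and that scatter may be technical.

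Immediate early genes need no new protein to be transcribed. Growth factors, stretch and injury act through MAP kinases on factors that are already bound at their promoters, and the products, among them the AP-1 subunits of the Fos and Jun families, then drive later genes. Many of the induced products are brakes, such as the DUSP phosphatases that switch MAP kinases off and the ZFP36 proteins that destroy short-lived mRNAs. Heat shock genes answer to unfolded protein through the factor HSF1, which binds repeats of a short element in their promoters. In dissociated pancreas and other organs both programmes are known to be switched on by warming, enzyme digestion and sorting, so their levels in sorted cells mix the state in the animal with the response to handling.

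Upstream sequences are shown for the members on which the results turn: Ier5 and Gadd45g, the pair that passed the test between the groups, and Hspa1a and Hspa1b, near-identical heat shock genes with some of the highest values. Each is the 250 bases before the annotated start in RefSeq (GRCm38.p6, the assembly behind mm10), written 5′ to 3′ along the gene, so none of it is transcribed from that start. Ier5 lies on the minus strand, with the window at chr1:155099637-155099886. Gadd45g lies on the plus strand, with the window at chr13:51846425-51846674. Hspa1a (chr17:34972157-34972406) and Hspa1b (chr17:34959239-34959488) both lie on the minus strand. Capitals mark matches to TATANA, the core of the TATA box, and to GAANNTTC or TTCNNGAA, a pair of heat shock element units, both searched on either strand.
Ier5: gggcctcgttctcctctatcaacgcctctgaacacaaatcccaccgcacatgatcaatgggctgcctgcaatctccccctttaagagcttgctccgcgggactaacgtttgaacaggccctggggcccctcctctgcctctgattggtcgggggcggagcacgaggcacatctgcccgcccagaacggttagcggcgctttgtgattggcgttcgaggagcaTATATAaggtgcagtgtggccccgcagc
Gadd45g: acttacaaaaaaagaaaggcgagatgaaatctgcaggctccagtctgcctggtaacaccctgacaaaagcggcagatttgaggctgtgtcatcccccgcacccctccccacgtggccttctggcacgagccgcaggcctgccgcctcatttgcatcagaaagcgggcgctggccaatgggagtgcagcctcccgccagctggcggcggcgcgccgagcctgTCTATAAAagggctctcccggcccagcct
Hspa1a: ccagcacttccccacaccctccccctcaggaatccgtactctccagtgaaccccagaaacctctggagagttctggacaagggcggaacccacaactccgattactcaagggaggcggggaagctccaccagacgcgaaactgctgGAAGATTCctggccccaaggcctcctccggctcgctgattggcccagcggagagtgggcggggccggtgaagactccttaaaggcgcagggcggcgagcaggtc
Hspa1b: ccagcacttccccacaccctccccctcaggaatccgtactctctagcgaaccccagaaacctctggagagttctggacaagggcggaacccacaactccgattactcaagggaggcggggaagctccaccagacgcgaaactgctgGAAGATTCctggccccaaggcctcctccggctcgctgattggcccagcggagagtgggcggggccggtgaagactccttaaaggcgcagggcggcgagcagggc
The TATA match began 28 bases before the start in Ier5, and overlapping matches on the 2 strands began 29 and 27 bases before it in Gadd45g. The heat shock pair began 104 bases before the start in both Hspa1 genes, whose windows were identical at 247 of 250 positions.

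Upstream sequence was found by symbol for 37 of the 45 members, using the first listed start of each gene. The heat shock pair lay in 7 of the 37 (18.9%), against 12.9% of 27025 genes with a window of the same length. Those 7 were Hspa1a, Hspa1b, Hspb1, Dnaja1, Hsph1, Jun and Fosl2. The TATA match lay in 9 of 37 (24.3%), against 23.4% of all windows. The cyclic AMP response element TGACGTCA, bound by CREB and ATF factors, lay in 4 of 37 (10.8%), against 1.62%, and these were Btg2, Dusp1, Dusp8 and Ppp1r15a. Its core TGACGT, which overlaps the full element, lay in 9 (24.3%), against 6.56%, Fos and Atf3 among them. The CArG box, the site of serum response factor, lay in Zfp36 and Dusp5 alone (5.41%), against 1.4% of all windows. These are matches of letters within this window and not measured sites.

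Depth estimated from the steps between low values was 19.8 to 41.8 M reads per library. For CD133(high)CD71(low) library 3 the estimate was 41.8 M, while a deposited row of that library gives 74.2 M alignments. The reason for this gap was not tested, so the depths are uncertain. CD133(high)CD71(low) library 3 was deposited with another set of symbols than the other 4 and differed from both of its group mates: across tested genes its Pearson r with libraries 1 and 2 was 0.911 and 0.920, against 0.994 between those 2. With the CD133(positive)CD71(negative) libraries, libraries 1 and 2 had an r of 0.918 to 0.934, about as high as with library 3. For library 3 that r was 0.806 and 0.818. Over the tested genes the values of library 3 were a median of 1.23 times the mean of libraries 1 and 2. Members whose call differs without it are therefore given both ways. Acinar enzyme genes dominated all libraries: a fixed list of 15 summed to 241920 and 270740 RPKM in CD133(positive)CD71(negative) cells and to 104070 to 227790 in CD133(high)CD71(low) cells, lowest in library 3. RPKM divides reads by transcript length and by the reads of the whole library, so a smaller acinar share raises the RPKM of every other gene, and results are also given after scaling by the median of ratios to a mean library. That scaling took the all-gene median difference from 0.31 to 0.06 on the log2 scale. The lists of 18 leukocyte and 14 endothelial markers summed to 1905 to 1941 and 847.4 to 908.2 RPKM in CD133(positive)CD71(negative) cells, and to 48.3 to 91.7 and 85.1 to 249.5 in CD133(high)CD71(low) cells. The ductal list of 14 summed to 3572 and 3802 RPKM against 5167, 5172 and 7301 (11 higher), and the mesenchymal list to 255.3 and 234.2 against 97.5, 90.3 and 93.6 (7 of 10 tested lower). The endocrine list summed to 1857 and 1684 against 1587, 1845 and 595.4 (5 of 10 tested lower, 0 higher). The erythroid list summed to 11.8 and 11.8 RPKM against 122.8, 118.2 and 32.5 (3 of 4 tested higher), and the Schwann cell list to 16.3 and 14.5 against 2.65, 2.69 and 3.81 (3 of 4 tested lower). With all 5 libraries scaled, 5 of 14 ductal and 2 of 4 erythroid markers passed as higher. As lower passed 16 of 17 leukocyte, 13 of 14 endothelial, 7 of 11 mesenchymal, 3 of 10 endocrine and 3 of 4 Schwann cell markers. Among all genes 6.25% passed as higher and 7.22% as lower without scaling, and 2.65% and 9.25% with it. The part of any of these cell types in the results below was not tested. No marker of any list was at 0 in all libraries of a group. Prom1 measured 47.3 ± 2.14 RPKM (SD, n = 2) against 93.6 ± 34.4 (n = 3) and Tfrc 4.18 ± 0.26 against 8.13 ± 3.61, without passing (limma adjusted p = 0.0909 and 0.151), and both passed as higher without library 3. In sorted bulk samples, fewer cells of a type and less RNA per cell cannot be told apart.

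The stress genes were abundant in all 5 libraries, and 2 of the 41 that could be tested passed with all libraries. In every library 27 of the 45 members (60%) measured at least 10 RPKM, as did 21.1% of all common symbols, and 9 (20%) at least 50 RPKM, as did 2.6% of all symbols. The 45 members summed to 1704 and 1982 RPKM in CD133(positive)CD71(negative) libraries 1 and 2 and to 2111, 2416 and 2334 in CD133(high)CD71(low) libraries 1, 2 and 3. After median-of-ratios scaling the sums were 2002 and 2158 against 2078, 2394 and 1870, so the groups overlapped. The plot of values by library shows each member's 5 values, which do not overlap between the groups for 28 of the 41 tested members and overlap for 13. Among all genes tested the CD133(high)CD71(low) libraries lay wholly above for 58.2% and wholly below for 12.0%.

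**Figure D1:**
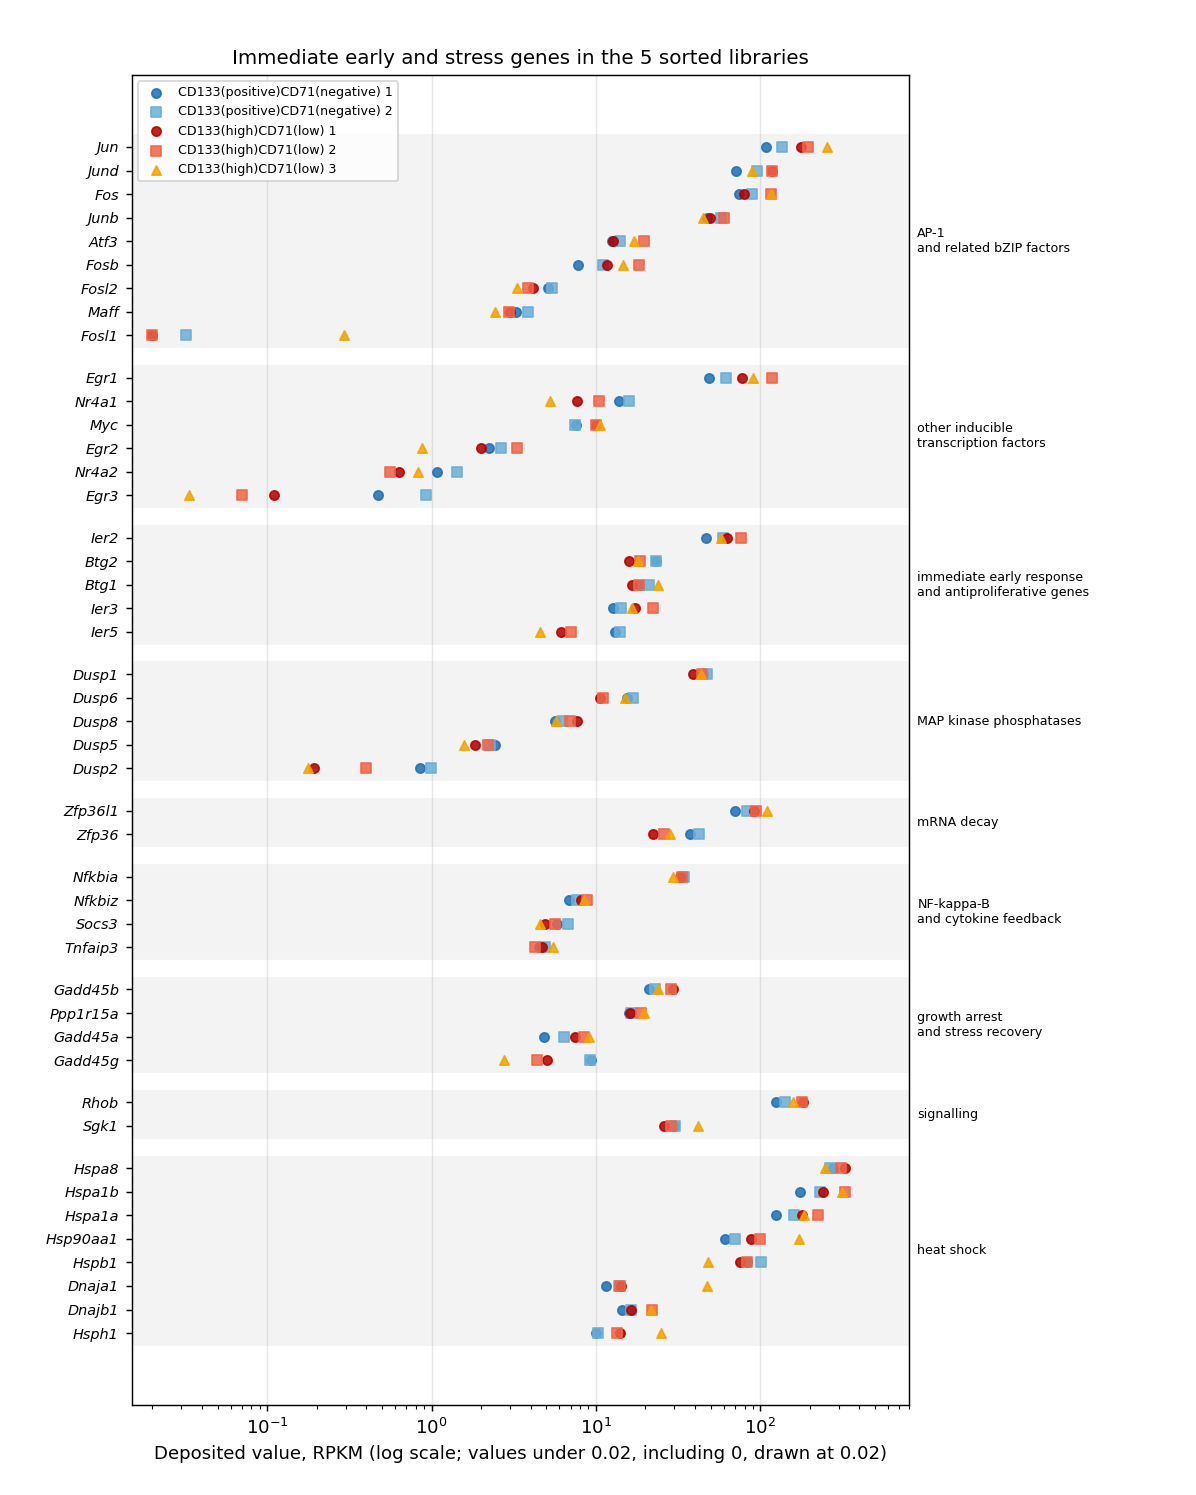
Each point is the deposited value (RPKM, log axis) of a member in a library, with circles, squares and triangles for libraries 1, 2 and 3, blue for CD133(positive)CD71(negative) and red to yellow for CD133(high)CD71(low). Hspa8, Hspa1b, Jun and Rhob lie to the right, and Ier5 and Gadd45g show red and yellow symbols clearly to the left of blue ones.

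Of the 45 members 41 had a mean of at least 1 RPKM and were tested, on the log2(RPKM + 1) scale. A positive difference means a higher level in CD133(high)CD71(low) cells. With all 5 libraries 0 of the 41 passed as higher and 2 as lower at an adjusted p under 0.05 (limma), beside 6.25% higher and 7.22% lower among 11769 genes. At an unadjusted p under 0.05, limma gave 10 higher and 6 lower members, beside 27.5% and 9.18% of all genes. The median difference of the members was 0.16, against 0.31 for all genes tested. Without CD133(high)CD71(low) library 3, 17 passed as higher and 7 as lower, beside backgrounds of 40.9% and 12.2%. The share of higher members (17 of 41) thus lay near the background in that setting. With median-of-ratios scaling of the 5 libraries 0 passed as higher and 5 as lower, beside 2.65% and 9.25%. With scaling and without library 3 the counts were 4 and 14, beside 15.2% and 16.5%. Called both with and without scaling in the 4 numbered libraries were 4 higher members (Jun, Egr1, Rhob and Hsp90aa1), beside 15.2% of all genes, and 7 lower members (Fosl2, Nr4a1, Ier5, Btg2, Dusp6, Zfp36 and Gadd45g), beside 12.2%.

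All CD133(high)CD71(low) libraries lay above both others for 16 of the 41 tested members and below both for 12, beside 58.2% and 12.0% of all genes tested. After scaling they lay above for 5 (Jun, Egr1, Gadd45a, Hsp90aa1 and Hsph1) and below for 15, beside 28.2% and 21.3%. As deposited, the 12 that lay below were Fosl2, Maff, Nr4a1, Ier5, Btg2, Dusp1, Dusp5, Dusp6, Zfp36, Nfkbia, Socs3 and Gadd45g.

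**Figure D2:**
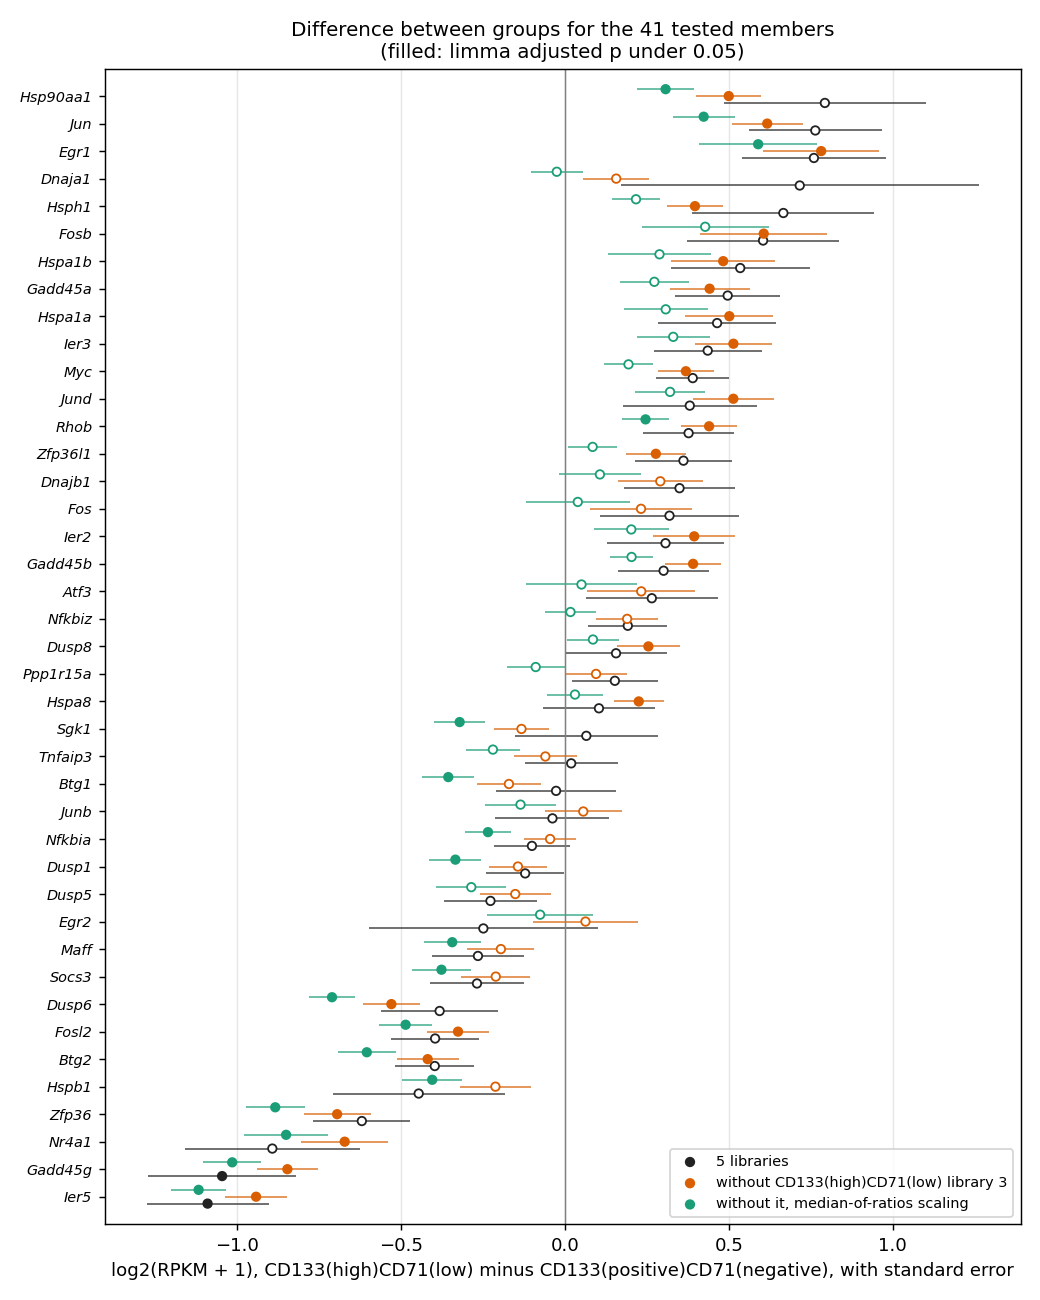
The difference of each tested member (in log2(RPKM + 1), with its standard error, positive where CD133(high)CD71(low) cells were higher) is drawn from all 5 libraries in black, without CD133(high)CD71(low) library 3 in orange, and without it after median-of-ratios scaling in green. Filled points passed limma at an adjusted p under 0.05. Ier5 and Gadd45g are filled in all 3, near -1, and Dnaja1 moves from 0.72 to 0.16 once library 3 is left out.

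Ier5, a nuclear regulator of the heat shock response and of cell proliferation, fell in CD133(high)CD71(low) cells. It measured 13.1 and 14.0 RPKM in CD133(positive)CD71(negative) cells and 6.11, 7.01 and 4.55 in CD133(high)CD71(low) cells. The groups did not overlap, and library 3 was the lowest. The difference on the log2 scale was -1.09 (SE 0.19, limma adjusted p = 0.0201), and -0.94 without library 3. Gadd45g, whose product binds and activates a kinase of the stress-activated MAP kinase pathway, fell as well. Its values were 9.29 and 9.15 RPKM against 5.004, 4.38 and 2.76, again lowest in library 3, with a difference of -1.05 (SE 0.22, limma adjusted p = 0.0381). After median-of-ratios scaling both passed as well, at -1.35 and -1.29 (limma adjusted p = 0.0245 and 0.0441). Both calls ended when either CD133(positive)CD71(negative) library was dropped, which leaves that group with a single library (limma adjusted p = 0.218 and 0.194 for Ier5, 0.319 and 0.237 for Gadd45g, without library 1 and 2). Lower calls over all genes then went from 850 to 157 and 154. Ier5 was also lost without CD133(high)CD71(low) library 1 (limma adjusted p = 0.0571) and Gadd45g without CD133(high)CD71(low) library 2 (limma adjusted p = 0.0993). Both genes lie with their own annotated bodies at chr1:155096361-155099636 and chr13:51846678-51848468. Of the 17 tested leukocyte and 14 endothelial markers 16 and 14 fell between the same groups, and their part in the levels of Ier5 and Gadd45g was not tested.

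Among the remaining immediate early response genes, Ier2 was the most abundant, at 46.9 and 58.9 RPKM in CD133(positive)CD71(negative) cells and 62.8, 76.7 and 57.7 in CD133(high)CD71(low) cells. Its groups overlapped, and its difference of 0.31 (limma adjusted p = 0.239) passed without library 3 (0.39, limma adjusted p = 0.0257). Ier3, which encodes a stress-inducible survival protein, measured 12.7 and 14.2 RPKM against 17.3, 22.2 and 16.5, with no overlap and a difference of 0.44 (limma adjusted p = 0.124) that passed without library 3 (0.51, limma adjusted p = 0.00639). After scaling of the 4 numbered libraries neither Ier2 nor Ier3 passed (0.20 and 0.33, limma adjusted p = 0.218 and 0.0575). The antiproliferative genes Btg1 and Btg2 differed in pattern. Btg2 measured 23.0 and 23.3 RPKM against 15.8, 18.5 and 17.9, so that every CD133(high)CD71(low) library was lower. Its difference of -0.40 did not pass with all libraries (limma adjusted p = 0.0843), did without library 3 (-0.42, limma adjusted p = 0.00575), and did when all 5 libraries were scaled (-0.68, limma adjusted p = 0.0281). Btg1 measured 18.3 and 21.1 RPKM against 16.5, 18.2 and 23.7, with library 3 the highest of all, and passed as lower in the 4 numbered libraries after scaling (-0.36, limma adjusted p = 0.0119).

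The AP-1 genes included some of the highest values of the set. Jun, a core AP-1 subunit, measured 109 and 135 RPKM in CD133(positive)CD71(negative) cells and 177, 196 and 253 in CD133(high)CD71(low) cells. The groups did not overlap and library 3 was highest, with a difference of 0.76 (SE 0.20) that did not pass (limma adjusted p = 0.0648). Without library 3 the difference was 0.62 and passed (limma adjusted p = 0.00156). After scaling it was 0.42 in the 4 numbered libraries (limma adjusted p = 0.0119) and 0.47 in all 5, where it did not pass (limma adjusted p = 0.105). Fos, the partner of Jun in AP-1, measured 74.5 and 89.3 RPKM against 79.6, 116 and 115, and the groups overlapped. Junb was nearly level, at 47.4 and 57.4 RPKM against 49.2, 59.9 and 44.4. Jund, the AP-1 subunit that is also present without stimulation, measured 70.6 and 95.4 RPKM against 117, 118 and 89.0. Library 3 lay between the CD133(positive)CD71(negative) libraries, and the difference of 0.38 passed when it was left out (0.51, limma adjusted p = 0.00797). Fosb measured 7.80 and 11.1 RPKM against 11.7, 18.3 and 14.6, with no overlap. Its difference of 0.60 (limma adjusted p = 0.128) was 0.61 without library 3 and passed there (limma adjusted p = 0.0259). After scaling of the 4 numbered libraries neither Jund nor Fosb passed (0.32 and 0.43, limma adjusted p = 0.0564 and 0.134).

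Other genes of the same family were less abundant than Jun and Fos. Fosl2 measured 5.08 and 5.43 RPKM against 4.15, 3.84 and 3.32, with a difference of -0.40 (limma adjusted p = 0.104), which passed without library 3 (-0.33, limma adjusted p = 0.0173). Maff, a small MAF factor that lacks an activation domain, measured 3.27 and 3.84 RPKM against 2.99, 2.95 and 2.43, and passed as lower in the 4 numbered libraries after scaling (-0.34, limma adjusted p = 0.0197). Atf3, a stress-induced factor of the ATF family, measured 12.5 and 14.1 RPKM against 12.6, 19.6 and 16.9, with overlap and a difference of 0.27. Fosl1 was listed at 0 in 3 libraries, with 0.03 RPKM in CD133(positive)CD71(negative) library 2 and 0.29 in CD133(high)CD71(low) library 3, and was not tested. Of the 8 tested genes in this role 0 passed as higher or lower with limma and all libraries, 2 higher and 1 lower at an unadjusted p under 0.05. Among all genes 6.25% passed as higher and 7.22% as lower, and 27.5% and 9.18% did at an unadjusted p under 0.05.

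Egr1, a zinc finger factor that is among the fastest genes to be induced, measured 48.4 and 62.2 RPKM in CD133(positive)CD71(negative) cells and 77.1, 117 and 90.7 in CD133(high)CD71(low) cells. The groups did not overlap, and library 2 was the higher of the first 2 in both. The difference of 0.76 (SE 0.22) did not pass (limma adjusted p = 0.0759), and did without library 3 (0.78, limma adjusted p = 0.00592). After scaling it was 0.59 in the 4 numbered libraries (limma adjusted p = 0.0404) and 0.47 in all 5, where it did not pass (limma adjusted p = 0.298). Nr4a1, an orphan nuclear receptor, went the other way, at 13.8 and 15.9 RPKM against 7.62, 10.4 and 5.26. Its difference was -0.89 (SE 0.27, limma adjusted p = 0.0808), and -0.67 without library 3 (limma adjusted p = 0.00303). Myc, a growth regulator, was the most even of these genes within groups, at 7.56 and 7.51 RPKM against 10.03, 10.01 and 10.5. Its difference of 0.39 did not pass (limma adjusted p = 0.0743) and did without library 3 (0.37, limma adjusted p = 0.00631). After scaling it did not pass, at 0.19 in the 4 numbered libraries and 0.13 in all 5. Egr2 measured 2.24 and 2.65 RPKM against 1.99, 3.31 and 0.88, a spread within CD133(high)CD71(low) cells wider than any gap between the groups. The scarce genes Egr3 and Nr4a2 were not tested. Egr3 was at 0.47 and 0.93 RPKM against 0.11, 0.07 and 0.03, and Nr4a2 at 1.07 and 1.43 against 0.64, 0.56 and 0.83. In both, every CD133(high)CD71(low) library was the lower, at levels where few reads decide the value.

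The DUSP phosphatases, which dephosphorylate MAP kinases, gave differences from -0.38 (Dusp6) to 0.16 (Dusp8) among the 4 tested. Dusp1, the stress-induced nuclear phosphatase, was the most abundant, at 44.5 and 47.1 RPKM against 38.8, 44.0 and 43.3. The values lay close together and did not overlap by a narrow margin, with a difference of -0.12 (limma adjusted p = 0.433). Dusp6, a cytoplasmic phosphatase of ERK, measured 15.5 and 16.7 RPKM against 10.6, 11.04 and 15.1. The difference was -0.38 with all libraries (limma adjusted p = 0.173) and -0.53 without library 3, where it passed (limma adjusted p = 0.00105). When all 5 libraries were scaled it was -0.66 and passed as well (limma adjusted p = 0.0134). In the 4 numbered libraries after scaling Dusp1 passed too (-0.33, limma adjusted p = 0.0157), and with all 5 scaled it was -0.41 and did not (limma adjusted p = 0.113). Dusp5 measured 2.44 and 2.27 RPKM against 1.84, 2.22 and 1.58, and Dusp8 5.62 and 6.23 against 7.62, 6.92 and 5.73. Dusp8 passed as higher without library 3 (0.25, limma adjusted p = 0.048), and did not after scaling of the 4 numbered libraries (0.09, limma adjusted p = 0.452). Dusp2, which is known from activated lymphocytes, was at 0.85 and 1.00 RPKM against 0.19, 0.40 and 0.18 and was not tested. With limma, all 5 libraries and no scaling 0 of the 4 tested passed in either direction, also at an unadjusted p under 0.05, while 1 was lower with all 5 scaled and 2 in the 4 numbered libraries after scaling. Without scaling 6.25% of all genes passed as higher and 7.22% as lower (27.5% and 9.18% unadjusted). In the scaled settings 9.25% and 16.5% of all genes were lower.

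The mRNA decay factors of the ZFP36 family split. Zfp36, encoding tristetraprolin, which destroys mRNAs with AU-rich elements, measured 37.1 and 42.2 RPKM in CD133(positive)CD71(negative) cells and 22.2, 26.1 and 28.3 in CD133(high)CD71(low) cells. The groups stood well apart, with a difference of -0.62 (SE 0.15) that lay at the threshold (limma adjusted p = 0.0508). It was called without library 3 (-0.70, limma adjusted p = 0.000574) and with all 5 libraries scaled (-0.91, limma adjusted p = 0.00739). Its relative Zfp36l1 measured 70.2 and 82.4 RPKM against 91.4, 93.5 and 110.3, each CD133(high)CD71(low) library being higher. That difference of 0.36 did not pass (limma adjusted p = 0.14), did without library 3 (0.28, limma adjusted p = 0.0305), and was 0.07 with all 5 libraries scaled.

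Of the feedback genes of the NF-kappa-B pathway, Nfkbia, the inhibitor that holds NF-kappa-B in the cytoplasm, measured 33.8 and 34.2 RPKM against 32.6, 33.4 and 29.3. Tnfaip3, which encodes the ubiquitin-editing protein A20, was at 4.50 and 4.91 RPKM against 4.69, 4.25 and 5.44. Nfkbiz, a nuclear relative of the inhibitor, was at 6.89 and 7.66 RPKM against 8.07, 8.80 and 8.47. Socs3, the inhibitor of cytokine receptors, was at 5.79 and 6.75 RPKM against 4.92, 5.64 and 4.56. With limma 0 of these 4 passed as higher or lower with all libraries, 0 at an unadjusted p under 0.05, and their differences ran from -0.27 to 0.19. Among all genes 6.25% passed as higher and 7.22% as lower (27.5% and 9.18% unadjusted). In the 4 numbered libraries after scaling Nfkbia (-0.23, limma adjusted p = 0.0359) and Socs3 (-0.38, limma adjusted p = 0.0162) passed as lower.

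Among the other growth arrest genes, Gadd45a, a target of p53, measured 4.84 and 6.41 RPKM against 7.496, 8.40 and 9.02, with no overlap and a difference of 0.50 (limma adjusted p = 0.0935). Gadd45b measured 21.0 and 22.9 RPKM against 29.4, 28.8 and 24.0, with a difference of 0.30 (limma adjusted p = 0.169). Both passed as higher without library 3 (0.44 and 0.39; limma adjusted p = 0.0144 and 0.00469), and neither did after scaling of the same 4 libraries (limma adjusted p = 0.0882 and 0.0512). Ppp1r15a, whose product restarts translation after stress, measured 15.9 and 16.3 RPKM against 16.0, 18.7 and 19.6. Of the signalling genes, Rhob, an inducible small GTPase, measured 124 and 141 RPKM against 181, 179 and 158. It did not overlap, and its difference of 0.38 (limma adjusted p = 0.118) passed without library 3 (0.44, limma adjusted p = 0.00288). With all 5 libraries scaled it was 0.08 and did not pass (limma adjusted p = 0.814). Sgk1, a kinase induced by serum and glucocorticoid, measured 30.0 and 30.1 RPKM against 26.03, 28.7 and 41.8, and its direction turned from 0.07 to -0.13 without library 3. It passed as lower in the 4 numbered libraries after scaling (-0.32, limma adjusted p = 0.0172).

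Heat shock genes held the highest levels of the set. Hspa1b, the stress-inducible HSP70, measured 174 and 232 RPKM in CD133(positive)CD71(negative) cells and 241, 328 and 313 in CD133(high)CD71(low) cells. It ranked between 86 and 164 among the 16992 genes of each library. Hspa1a, its near-identical neighbour, measured 124 and 160.4 RPKM against 179, 223 and 185. Of the 50-base windows of the Hspa1a transcript, 58.8% also occur in that of Hspa1b, so how reads were split between the genes is uncertain and they are not separate observations. In both, no CD133(high)CD71(low) library lay below a CD133(positive)CD71(negative) library, and neither difference passed (0.46 and 0.54; limma adjusted p = 0.129 and 0.134). Without library 3 both passed (limma adjusted p = 0.0128 and 0.0288), and with scaling of those 4 libraries neither did (limma adjusted p = 0.106 and 0.203). Hspa8, the constitutive HSP70, whose processed pseudogenes can take reads, measured 277 and 267 RPKM against 326, 309.9 and 247 and overlapped. It passed as higher without library 3 (0.23, limma adjusted p = 0.033), and its difference was 0.03 after scaling of those 4 libraries. Hspb1, a small heat shock protein, measured 82.4 and 101 RPKM against 74.9, 83.0 and 48.1. With limma 0 of the 8 heat shock members passed as higher or lower with all libraries, beside 6.25% and 7.22% of all genes. At an unadjusted p under 0.05, limma gave 3 of the 8 as higher, beside 27.5% of all genes. Without library 3, 5 of the 8 passed as higher and 0 as lower, beside 40.9% and 12.2% of all genes. In the same 4 libraries after scaling 1 passed as higher (Hsp90aa1) and 1 as lower (Hspb1, -0.40, limma adjusted p = 0.0127), beside 15.2% and 16.5%.

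Dnaja1, Hsp90aa1 and Hsph1 were higher in CD133(high)CD71(low) library 3 than in libraries 1 and 2 of its own group. Hspa8, Hspa1a, Hspb1 and Hspa1b were 0.78, 0.92, 0.61 and 1.10 times the mean of libraries 1 and 2 there. Dnaja1, an HSP40 cochaperone, measured 11.4 and 13.8 RPKM in CD133(positive)CD71(negative) cells and 14.2, 14.0 and 47.4 in CD133(high)CD71(low) cells. Library 3 was 3.36 times the mean of libraries 1 and 2, and without it the difference between the groups went from 0.72 to 0.16, neither of which passed (limma adjusted p = 0.337 and 0.208). Hsp90aa1, the stress-inducible HSP90, measured 61.2 and 70.3 RPKM against 87.1, 99.7 and 172. Hsph1, an HSP110 exchange factor, measured 10.1 and 10.3 RPKM against 14.1, 13.4 and 24.8. Library 3 was 1.85 and 1.81 times the mean of libraries 1 and 2 for these 2 genes. Their differences of 0.79 and 0.67 did not pass with all libraries (limma adjusted p = 0.13 and 0.144), and those of 0.50 and 0.40 without library 3 did (limma adjusted p = 0.00301 and 0.00444). With all 5 libraries scaled neither passed (limma adjusted p = 0.239 and 0.274). Dnajb1, the HSP40 most often paired with inducible HSP70, measured 14.5 and 16.2 RPKM against 16.4, 22.02 and 21.6 and was 1.12 times that mean in library 3. Among 27 other heat shock genes the ratio of library 3 to the mean of libraries 1 and 2 reached 2.07 for Hspa4l, 2.03 for Hspa13, 1.97 for Hspa4 and 1.97 for Dnajb4, while it was 0.69 for Dnajb6, and these 5 were picked after their values were seen. All genes tested had quartiles of 0.992 and 1.52 for this ratio. On the log2 scale the median shift of library 3 was 0.30 for the 27 other heat shock genes, against 0.25 for all genes tested. Of the 27, 77.8% were higher in library 3, against 74.6% of all genes tested. Mapk8, which is no heat shock gene and was picked after its values were seen, had a ratio of 4.02. The part of the other symbol set of library 3 in these values was not tested.

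**Figure D3:**
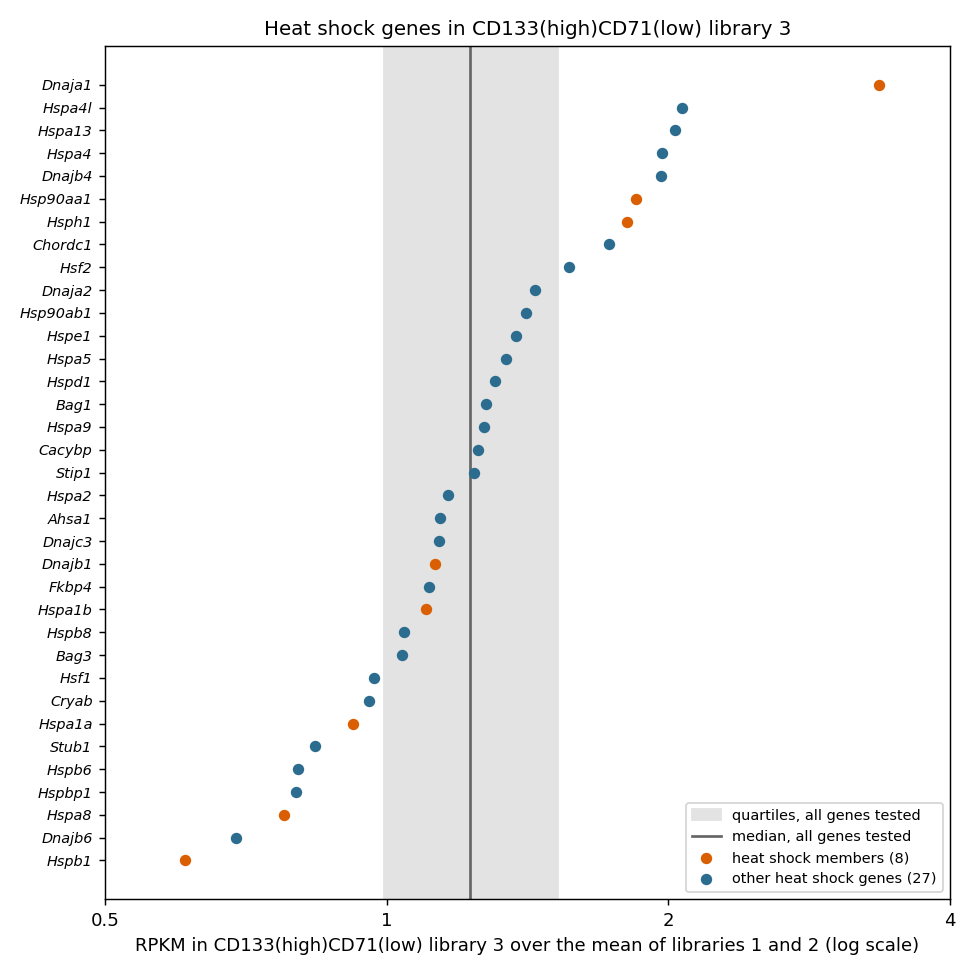
The ratio of RPKM in CD133(high)CD71(low) library 3 to the mean of libraries 1 and 2 (log axis) is drawn for 8 heat shock members in orange and 27 other heat shock genes in blue, with the quartiles of all genes tested as a grey band and their median of 1.23 as a line. Dnaja1, at 3.36, lies farthest to the right, and Hspb1, at 0.61, farthest to the left.

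Replicate libraries of the same population differed in the level of this programme, in some genes as much as the populations did. On the log2 scale 37 of the 41 tested members were higher in library 2 than in library 1 of CD133(positive)CD71(negative) cells (90.2%, against 70.5% of all genes tested), with a median of 0.17 against 0.08. In CD133(high)CD71(low) cells 30 of the 41 were higher in library 2 than in library 1 (73.2%, against 43.1%), with a median of 0.15 against -0.02. In both groups at once, 29 of the 41 were higher in library 2 (70.7%, against 31.9% of all genes). The gaps between CD133(high)CD71(low) libraries 2 and 1 were widest for Fosb (0.60), Atf3 (0.60), Egr1 (0.59), Fos (0.54) and Egr2 (0.53), immediate early transcription factor genes. Those genes differed by 0.46, 0.16, 0.36, 0.26 and 0.17 between CD133(positive)CD71(negative) libraries 2 and 1. For Fos the gap between CD133(high)CD71(low) libraries 2 and 1 was wider than the difference between the groups, which was 0.32. By contrast Myc differed by less than 0.02 between libraries 1 and 2 of either group.

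In CD133(high)CD71(low) library 3 the members did not share the shift of the other genes. Against the mean of libraries 1 and 2, 20 of the 41 members were higher (48.8%, against 74.6% of all genes tested), with a median of -0.01 against 0.25. Egr2 (-0.93), Hspb1 (-0.70), Nr4a1 (-0.66) and Gadd45g (-0.60) lay lowest, and Dnaja1 (1.68), Hsp90aa1 (0.88) and Hsph1 (0.81) highest. The AP-1 role had a median of -0.11 and the heat shock role one of 0.17. The endothelial markers summed to 249.5, 154.4 and 85.1 RPKM in CD133(high)CD71(low) libraries 1, 2 and 3 and the acinar markers to 224060, 227790 and 104070, and the part of either in these gaps was not tested.

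**Figure D4:**
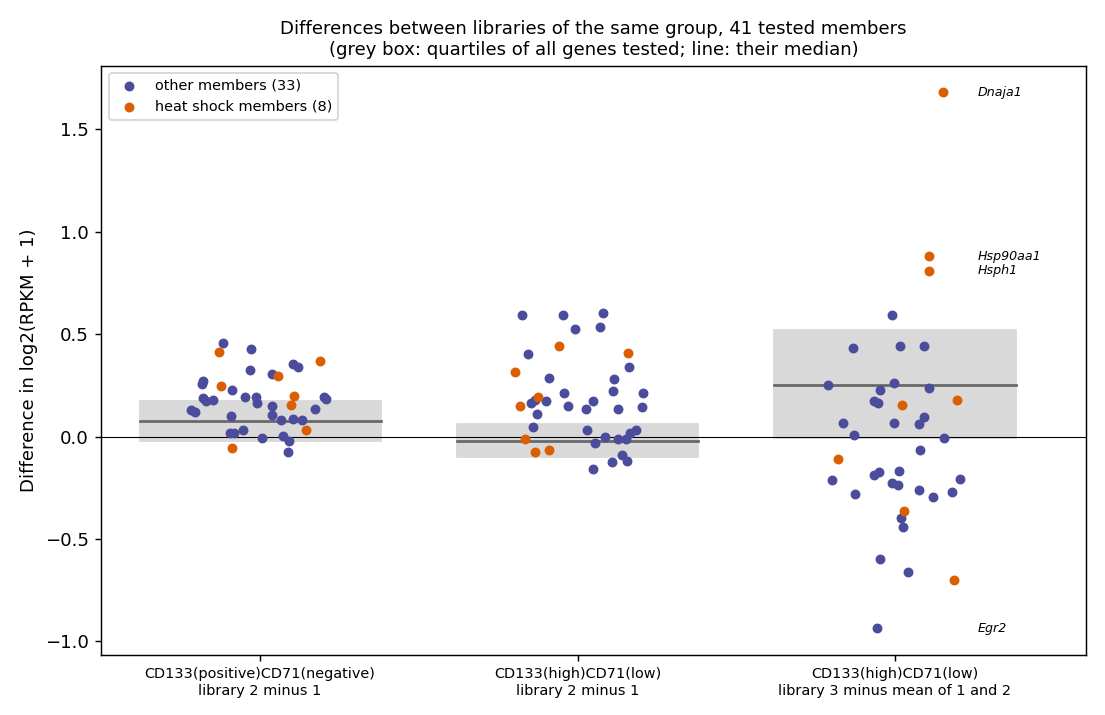
Points are the 41 tested members, 8 heat shock genes in orange and 33 others in blue, as differences in log2(RPKM + 1) between libraries of the same group, and the grey boxes and lines are the quartiles and medians of all genes tested. Most points lie above the line in both comparisons of library 2 with library 1, and below it for CD133(high)CD71(low) library 3.

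Genes of the same pathways outside the set gave a wider range. Of 114 genes on 5 lists 101 were tested with limma, and 5 passed as higher and 10 as lower, beside 6.25% and 7.22% of all genes. The median difference of the 101 was 0.25, against 0.31 for all genes tested, and -0.01 against 0.06 after median-of-ratios scaling. Among 32 other immediate early genes 3 passed as higher and 6 as lower. Cyr61, a matrix protein gene of the serum and YAP responses, rose from 63.3 ± 5.65 RPKM (SD, n = 2) to 118 ± 15.6 (n = 3), a difference of 0.88 (limma adjusted p = 0.0241). Errfi1, a feedback inhibitor of the EGF receptor, rose from 24.8 ± 2.03 to 44.4 ± 7.20 RPKM (limma adjusted p = 0.0329). Klf2, a flow-induced factor of endothelium, fell from 26.97 ± 1.83 to 4.79 ± 1.88 RPKM (limma adjusted p = 0.00807). Rgs1, a G protein regulator of lymphocytes, fell from 2.59 ± 0.25 to 0.03 ± 0.03 RPKM (limma adjusted p = 0.000668). Both are genes known from endothelial or blood cells, whose markers fell between the same groups, and the part of those cells was not tested.

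For the lists that follow, the limma shares over all genes were 6.25% higher and 7.22% lower, and 27.5% and 9.18% at an unadjusted p under 0.05. Of the 18 upstream kinases and factors 0 passed as higher and 1 as lower with limma. It was Elk3, a ternary complex factor, which fell from 15.1 ± 0.48 to 6.98 ± 0.89 RPKM (SD, n = 2 and n = 3; limma adjusted p = 0.0113), and 1 was higher and 1 lower at an unadjusted p under 0.05. Of the 27 other heat shock genes 2 passed as higher and 0 as lower, 8 and 0 at an unadjusted p under 0.05. Cryab, a small heat shock protein gene, rose from 50.3 ± 1.70 to 88.9 ± 4.74 RPKM (limma adjusted p = 0.0116). Fkbp4, an HSP90 cochaperone gene, rose from 69.1 ± 2.96 to 103 ± 7.69 RPKM (limma adjusted p = 0.0406). Hsf1, which was picked after its values were seen, measured 12.4 and 13.9 RPKM against 15.6, 13.5 and 14.1, with overlap. Of 13 other NF-kappa-B genes 0 passed as higher and 2 as lower, 2 and 2 at an unadjusted p under 0.05. Tnfaip2 fell from 6.22 ± 0.31 to 1.36 ± 0.37 RPKM (limma adjusted p = 0.00433), and Icam1, a leukocyte adhesion receptor gene, from 13.1 ± 0.38 to 7.05 ± 1.501 (limma adjusted p = 0.0463). Of 11 p53 and growth arrest genes 0 passed as higher and 1 as lower, 1 and 1 at an unadjusted p under 0.05. That gene was Cdkn1a, the cell cycle inhibitor p21, at 14.0 ± 0.48 and 9.68 ± 0.23 RPKM (limma adjusted p = 0.0435). Without library 3, 28 of 102 tested genes on these lists passed as higher and 13 as lower, beside 40.9% and 12.2% of all genes, and with all 5 libraries scaled 1 of 101 and 9 did, beside 2.65% and 9.25%.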

How the data were processed

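RNA was extracted from lysed sorted cells and sequenced on Illumina libraries, per the labels' protocols. The authors deposited a separate table of symbols and RPKM-like values for every library. Partek and mm10 were used, per the submitters' processing notes, with the aligner not given in the sources used here. The unit is inferred: the deposited values behaved as RPKM, because low values multiplied by transcript length (genes with a single GENCODE M21 transcript) fell on multiples of one step per library, although the share of low values within 0.05 of a whole read was only 51.2% to 64.4% (10% by chance). That is too few to recover reads, so count tests were not run. A row of library 3 that names no gene and gives 74.2 M alignments was left out of the gene values. The step estimate for that library was 41.8 M.

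Genes with a mean of at least 1 RPKM were tested as log2(RPKM + 1) with limma 3.58.1 (R 4.3.3; mean-variance trend, group as sole term), Benjamini-Hochberg adjustment over all genes and a threshold of 0.05. The fit and the step finder were tested on simulated data. The libraries simulated for the fit shared a single scatter, taken from libraries 1 and 2 of each group, with none set apart like library 3. That simulation therefore cannot show how the fit behaves with library 3. Folds on this scale understate changes of low genes. An exact permutation test of 2 against 3 libraries reaches p = 0.2 (two-sided) at the lowest and was not run.

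The 45 members and the lists were chosen with earlier results of these data known. Named genes were every member and, for each other list, up to 2 higher and 2 lower genes with the smallest adjusted p, with Prom1 and Tfrc as the sorting markers. Alternatives were a pseudocount of 0.1, no filter, a minimum mean of 5, median-of-ratios and quantile scaling, each library left out, the 4 numbered libraries with scaling, and a replicate block. Sequences are from RefSeq GRCm38.p6 and gene positions from GENCODE M21. Python 3.11.15, pandas 2.3.3 and matplotlib 3.10.9 made tables and figures.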

Additional observations from a re-analysis of the deposited data

How the results depend on the processing

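Ier5 and Gadd45g stayed lower than 0 in all 13 alternatives, at -1.35 to -0.94 and -1.29 to -0.85. With 2 and 3 libraries the precision is limited, and leaving out either CD133(positive)CD71(negative) library ended the calls of both and left 157 and 154 lower and 0 and 1 higher calls over all genes. Leaving out each library in turn gave 0 to 17 higher and 0 to 7 lower members, 0 to 4785 and 154 to 1425 of all genes, and 0 to 28 and 0 to 13 genes of the other lists. The difference then ran from -0.17 to 0.078 for Btg1, -0.54 to 0.063 for Egr2, -0.17 to 0.098 for Junb, -0.13 to 0.20 for Sgk1 and -0.060 to 0.088 for Tnfaip3. Without a filter 5 members, 1729 genes and 16 other list genes were lower (Dusp2, Egr3 and Zfp36 joined the members). With a mean of at least 5, 315 genes were lower and 3 other list genes higher. With median-of-ratios scaling 5 members were lower, 312 genes and 1 other list gene were higher, and the direction turned for Atf3 (-0.011), Dusp8 (-0.096), Nfkbiz (-0.070), Tnfaip3 (-0.23), Ppp1r15a (-0.13), Sgk1 (-0.22) and Hspa8 (-0.19), none of them called. Quantile normalization gave 5 lower members and 3 higher other list genes, and turned Atf3 (-0.018), Dusp8 (-0.045), Nfkbiz (-0.034), Tnfaip3 (-0.14), Gadd45b (-0.0069), Ppp1r15a (-0.14) and Sgk1 (-0.21). The 4 numbered libraries with scaling gave 4 higher and 14 lower members, 1782 and 1933 of all genes and 12 and 19 other list genes, and turned Tnfaip3 (-0.22), Ppp1r15a (-0.089), Sgk1 (-0.32, called) and Dnaja1 (-0.025). The cause of these changes was not tested. The pseudocount of 0.1 changed no member's call.

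The replicate number in the titles was tried as a block in the 4 numbered libraries. Deviations of libraries with the same number correlated with an r of -0.02 across the 11769 genes tested and 0.48 across the 41 members. This correlation cannot decide whether the numbers mark a pairing, because a shared mouse or sort could move only some genes. The replicate block gave 20 higher and 7 lower of 41 members, and 5275 and 1543 of 11695 genes. It gave 32 of 102 other list genes as higher. Without the block these counts were 17, 7, 4785, 1425 and 28. The block left Junb at 0.056, Egr2 at 0.063, Tnfaip3 at -0.060 and Sgk1 at -0.13. A block in 4 libraries leaves little of each gene's own scatter to estimate, so these calls lean mostly on the spread shared over all genes. The replicate block with scaling gave 13 higher and 14 lower of 41 members, and 2073 and 2127 of 11716 genes. It gave 13 and 25 of 102 other list genes. Tnfaip3 was at -0.22, Ppp1r15a at -0.089, Sgk1 at -0.32 and Dnaja1 at -0.025. Fosb, Jund, Ier2 and Ier3 were among the members that passed as higher here but not after scaling without the block. The same limit of the block holds for these calls.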
